A study of Mus musculus with 4 samples.

Results

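The Cyp4a14-high spots were the 787 of 5240 spots in the kidney sections of 2 Uox_KO mice that held the most Cyp4a14 mRNA, out of 11130 spots in all 4 sections of the series. Cyp4a14 encodes a cytochrome P450 that hydroxylates the end carbon of fatty acids. Each spot's Cyp4a14 unique molecular identifiers (UMIs, 1 for each captured mRNA molecule) were divided by its UMIs outside the mitochondrial genome and multiplied by 10000, and the top 15% of each section were taken. This gave 398 of 2650 spots in Uox_KO section 1 and 389 of 2590 in Uox_KO section 2. The study used Visium, in which a frozen tissue section lies on an array of barcoded spots and each spot collects polyadenylated RNA from the several cells above it. Both genotypes were male mice on the C57BL/6J background. The Uox_KO mice were made without exons 2 to 4 of Uox, the gene for urate oxidase, which breaks down uric acid in rodents, and they model hyperuricemia. The Control mice were wild type. No other allele, agent or treatment is named for either group, and the age of the mice is not given in the sources used here. Each genotype had 2 sections, which the titles give as separate mice (n = 2 per genotype). The labels name no littermates or slides. Tests between classes of spots remove the level of each section, so their p-values rest on how that difference varies between sections. Only the test of Uox_KO sections against Control sections rests on the spread between sections. The spread used is described below.

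The proximal tubule, which reabsorbs most of the filtered solutes, takes much of its energy from fatty acids burned in mitochondria, and it is rich in peroxisomes that shorten very long chains. The nuclear receptor PPAR-alpha, bound with RXR to a pair of spaced half-sites in DNA, turns on genes of both pathways when fatty acids are plentiful, and the Cyp4a genes are among its classical targets in rodents. Injured proximal tubule cells are known to lose fatty acid oxidation enzymes and transporters while they make proteins such as KIM-1, the product of Havcr1. A proximal promoter from one of the fatty acid genes that rose most is shown, because it holds the half-site pair. The half-site AGGTCA, 1 base of any kind and AGGTCA again were searched on both strands, with at most 1 mismatch, in windows that run from 250 bases before to 50 after each RefSeq start (GRCm38.p6, the build called mm10 in the files). In all, 182 of 32851 windows held a match (0.554%). Of the 134 genes in the fatty acid lists used here, 102 had a window. Cyp4a14, Cyp4a10, Vnn1 and Angptl4 had none and were not searched. Of the 126 windows, 2 held a match (1.59%), those of Acot12 and of Fabp1, the gene of the liver-type fatty acid-binding protein. The Fabp1 sequence is chr6:71199767-71199869, on the plus strand, with the match on the opposite strand in capitals, with its first base at -67 from the start site.
Fabp1: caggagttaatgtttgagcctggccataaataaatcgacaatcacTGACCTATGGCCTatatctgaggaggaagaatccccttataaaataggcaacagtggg
Fabp1 reached 19.9 and 19.1 CPM (counts per 1000000 UMIs) in the Cyp4a14-high spots of Uox_KO sections 1 and 2, against 4.32 and 6.23 in the remaining spots. A letter match does not show that a factor binds there.

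The 2 Uox_KO sections held 53897511 and 57230517 UMIs, and the 2 Control sections 93524222 and 107962997. Uox itself had 0 UMIs in all 4 sections, Control included, which allows up to 0.0278 to 0.0557 CPM by counting error alone, so the deletion could not be checked in kidney. From 1861 to 2539 barcodes were shared between any pair of sections, as each array carries the same printed barcodes. UMIs were summed over the Cyp4a14-high spots and over the remaining spots of each section. The sums were compared with edgeR's quasi-likelihood test with the section as a block and with Cyp4a14 left out. Adjusted p-values are after Benjamini-Hochberg over all genes tested, with a threshold of 0.05. The fit found no difference in spread between genes and, with 1 residual degree of freedom, borrowed its spread across all genes. Very small adjusted p-values therefore carry little information, and the values in both sections are given instead. Levels are CPM after trimmed-mean scaling, written for Uox_KO section 1 and then section 2. Fold changes and their standard errors (SE) are on the log2 scale, where 1 is 2-fold. Each SE was derived from the fold change and the test statistic. It therefore rests on the spread borrowed across genes and says little about a gene's own variation between sections.

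Spots were chosen on Cyp4a14, so its own levels are only described. The median Cyp4a14-high spot held 28.0 and 26.9 Cyp4a14 UMIs per 10000, with a highest spot of 45.2 and 44.1. The median remaining spot held 6.13 and 7.25. The last spot inside the limit had 22.84 and 22.44 per 10000 and the first outside had 22.83 and 22.44, so the limit cuts a continuous range. The 10 spots just inside carried a median of 62.5 and 50 Cyp4a14 UMIs and the 10 just outside 68 and 66.5. With 21.6% and 20.1% of all UMIs, the Cyp4a14-high spots held 46.2% and 42.2% of the Cyp4a14 UMIs of their sections. They were also deeper, with a median of 31162 and 31042 UMIs per spot against 14853 and 17628 in the remaining spots, and only 8 and 10 of them had fewer than 5000. Mitochondrially encoded transcripts took 18.5% and 21.2% of their UMIs, against 13.1% and 16.3%. Against remaining spots matched 1 to 1 on UMIs, 58.3% of 13565 genes passed the test described above, 27.9% higher and 30.4% lower, and the peroxisomal and injury lists described below kept medians of 0.94 and -1.50.

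The spots were proposed as adapted tubule, and their markers were those of proximal tubule. Of 14969 genes tested between the Cyp4a14-high and the remaining spots, 65.4% passed the threshold, 31.6% higher and 33.8% lower, so counts within a list are read against this background. Genes shared along the whole proximal tubule were higher for 19 of 20 tested, with a median log2 fold change of 1.39, against -0.05 over all genes. Kap, an androgen-dependent kidney protein, stood at 76350 and 67310 CPM against 25620 and 22760, and the phosphate carrier gene Slc34a1 at 5446 and 5971 against 1876 and 2262. Of the S1 and S2 markers, which mark the convoluted part, 11 of 14 were higher and 1 lower (median 1.25), and of the S3 markers, which mark the straight part, 12 of 14 were higher and 0 lower (median 1.29). The exception was Slc5a2, the glucose carrier SGLT2 of the earliest segment, at 38.5 and 39.0 against 45.1 and 58.4 (log2 fold change -0.38, SE 0.068), although against remaining spots matched on UMIs it was at 0. In summed spots, fewer cells of a type cannot be told apart from less RNA per cell. No marker list separates an adapted from an ordinary proximal tubule, so the spots are called Cyp4a14-high here.

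The choice of scale set the direction of small differences. Between the Cyp4a14-high and the remaining spots, library totals without trimmed-mean scaling, an alternative chosen after seeing the data, moved the median of all genes from -0.05 to -0.58. The split of calls went from 4731 higher and 5055 lower to 1416 higher and 10561 lower. A small rise therefore holds only relative to the other genes. On library totals the peroxisomal list had a median of 0.55, the mitochondrial fatty acid oxidation list of 0.29 and the injury list of -2.04, so these kept their direction. The list of PPAR-alpha, its partners and other lipid sensors went from 0.28 to -0.25 and the purine metabolism list from 0.26 to -0.26.

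In the Cyp4a family 4 other genes rose. The Cyp4a genes lie in 1 cluster on chromosome 4 (GRCm38), with Cyp4a14 at 115486200 to 115496158, Cyp4a10 at 115518287 to 115533649 and Cyp4a31 at 115563627 to 115579015. Cyp4a10, the neighbour and a fatty acid hydroxylase as well, stood at 1415 and 1342 CPM in the Cyp4a14-high spots and at 421 and 394 in the remaining spots (log2 fold change 1.79, SE 0.056). Cyp4a31 stood at 717 and 692 against 250.4 and 238 (1.56). Cyp4a12a, a form known to be higher in males, stood at 31.1 and 44.1 against 10.2 and 17.6 (1.48), and Cyp4a12b at 50.2 and 56.8 against 16.4 and 24.3 (1.44). Both sections of the Cyp4a14-high spots were above both of the remaining spots for each of these 4 genes. Cyp4a29 and Cyp4a30b had 0 UMIs in both Uox_KO sections, and Cyp4a32 had 1 and 2 UMIs, all in the remaining spots. These copies are near-identical in places, so how reads were shared among them is uncertain. Over the whole Cyp4 list of 17 genes, 12 passed the filter on low counts, 7 were higher and 3 lower, the latter Cyp4f15, Cyp4f18 and Cyp4v3. Cyp4b1, of another subfamily, stood at 2692 and 2904 against 722 and 947 (1.79).

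Of the genes of peroxisomal fatty acid oxidation, 35 of 37 tested were higher and 2 lower (median 1.08). Ehhadh, the peroxisomal bifunctional enzyme, stood at 740.5 and 703 CPM in the Cyp4a14-high spots and 207 and 209 in the remaining spots (log2 fold change 1.83, SE 0.057). Acaa1b, a peroxisomal thiolase, stood at 1811 and 1700 against 523 and 509 (1.80). For both genes the 2 sections lay close together and the classes did not overlap. Pex11a, a peroxisome division factor, rose by 1.28 and the reductase gene Pecr by 1.45. Abcd2, a peroxisomal fatty acid transporter gene named after its values were seen, was among the lower ones. Acaa1b has a near-identical copy, Acaa1a, so its level is uncertain to that extent.

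In mitochondrial fatty acid oxidation 24 of 28 genes were higher and 4 lower (median 0.82). The lower ones were Cpt1b, Ucp3, Hadha and Hadhb. The carnitine transferase genes of the tubule, Cpt1a and Cpt2, stood at 233 and 257 against 136 and 146 CPM and at 396 and 381 against 172 and 179. Acadm, the medium-chain dehydrogenase, stood at 650.3 and 619.7 against 299 and 318 (1.07). Cpt1b, the muscle and brown fat form of the carnitine transferase, was the lowest of the list at 2.50 and 3.62 against 19.8 and 30.2 (-3.00). The remaining spots also held the adipocyte genes described further on, and when spots rich in adipocyte or urothelium genes were left out, 26 genes of this list were higher and 1, Cpt1b, was lower. Over all 14739 genes tested without those spots, 4662 were higher and 4868 lower.

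The genes for ketone synthesis, acyl-CoA cleavage and fasting went the same way, 14 of 16 higher and 1, Vnn3, lower (median 1.09). Acot1, which frees fatty acids from acyl-CoA in the cytosol, stood at 381 and 344 CPM against 166 and 142 (1.27), and the pantetheinase gene Vnn1 at 541 and 522 against 181 and 179 (1.59). The gluconeogenic genes G6pc and Pck1 are in the same list and rose by 1.93 and 1.56.

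For some known PPAR-alpha targets the size and direction depended on the spots and the scale used. Pdk4, which limits glucose oxidation, stood at 70.7 and 82.6 CPM against 54.6 and 79.6 and the 2 classes overlapped across sections. Its log2 fold change of 0.24 passed the threshold but became -0.28 on library totals and -0.29 against remaining spots matched on UMIs, while it was 0.98 when spots rich in adipocyte or urothelium genes were left out. Plin2, which coats lipid droplets, stood at 239 and 253 against 216 and 229 (0.18, and -0.35 on library totals). Angptl4, an inhibitor of lipoprotein lipase, rose by 0.63, although on library totals its 0.11 did not pass the threshold. Ppara itself stood at 2.40 and 2.90 against 1.82 and 2.54 (log2 fold change 0.32, SE 0.25), and did not pass edgeR's quasi-likelihood test (adjusted p = 0.27). Without the spots rich in adipocyte or urothelium genes its log2 fold change was 0.89, which passed the same edgeR test (adjusted p = 0.0029). Its coactivator gene Ppargc1a did not pass either (0.18). Among the other lipid sensors Nr1h4, the bile acid receptor FXR, rose by 1.27 and Hnf4a, a factor of proximal identity, by 0.96. Of the fatty acid uptake and droplet genes 16 of 33 were higher and 14 lower (median -0.01), and without those fat and urothelium spots 23 were higher and 2 lower (median 0.62). Over all 14739 genes tested without those spots, 4662 were higher and 4868 lower. Cidea, Cidec, Fabp4 and Lipe of the uptake and droplet list were also used to choose the spots left out. The acyl-CoA synthetase gene Slc27a2 (1.34), the medium-chain ligase gene Acsm2 (1.53), the fatty acid receptor gene Cd36 (0.74) and Fabp1 (1.92, SE 0.11) were on the higher side.

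**Figure D1:**
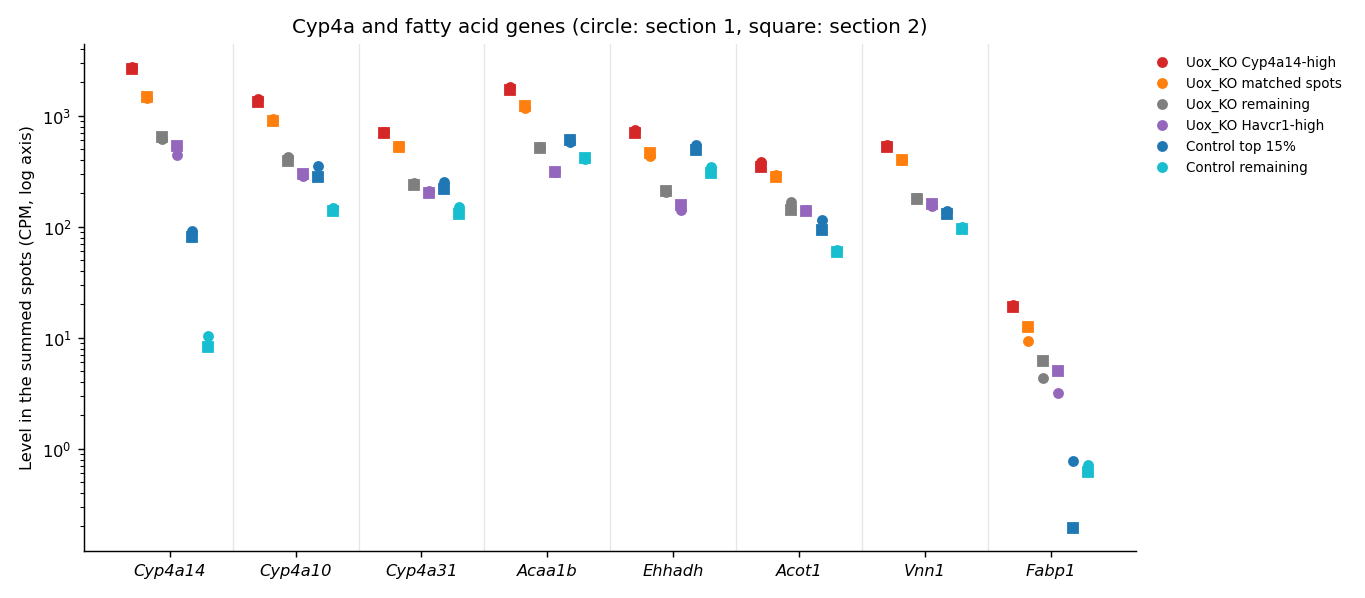
Level of 8 fatty acid genes in CPM on a log axis, by class of spots, with 1 point for each section and no error bars. In every gene the Cyp4a14-high spots (red) lie above the matched (orange), remaining (grey) and Havcr1-high (purple) spots of Uox_KO, and Cyp4a14 itself, which chose the spots, falls from 2748 and 2621 CPM to 10.3 and 8.25 in the remaining Control spots (light blue).

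The 15 largest rises, among genes that average 10 CPM or more, predicted genes not counted, were Cyp2d12, Cyp2a5, Azgp1, Dpys, Ttr, Ctxn3, Rdh16f2, G6pc, Fabp1, Cyp2d9, Slc7a13, Inmt, Ehhadh, Cyp2a4 and Acaa1b, with log2 fold changes from 1.80 to 2.32. Several are P450, retinoid or methyl transfer enzymes of tubule and liver. Cyp2a5, a xenobiotic P450, stood at 147 and 154 CPM against 27.1 and 37.3. Ttr, which carries thyroid hormone and retinol-binding protein, stood at 1773 and 2263 against 439 and 608. Slc7a13, an amino acid carrier of the S3 segment, stood at 460.2 and 429.6 against 164 and 97.5 and Inmt, a methyltransferase, at 863 and 839 against 251 and 236. In each of these the lower of the 2 Cyp4a14-high values was above the higher of the 2 remaining values. The Cyp2a4 and Cyp2a5 pair and the Cyp2d genes are near-identical copies, so their separate levels are uncertain. A predicted gene, Gm15441, had a larger rise than these 15 (2.62), at 20.3 and 15.5 CPM against 2.69 and 3.24, and is named after its values were seen. It overlaps Txnip, which encodes a thioredoxin-binding protein and was lower (-0.14), and how reads of the overlap were assigned is not given in the sources used here.

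Transport and energy genes that share the proximal tubule were higher too. Of the urate and organic anion transport genes 16 of 18 were higher and 0 lower (median 1.36). They include the anion exchanger genes Slc22a6 (1487 and 1617 against 462 and 559 CPM) and Slc22a8 (298 and 344 against 85.5 and 113). Slc22a12, the urate carrier URAT1, stood at 728 and 762 against 275 and 285, and the urate exporter gene Abcg2 at 482 and 507 against 222 and 222. All 13 of 13 mitochondrially encoded transcripts were higher (median 0.99), for example mt-Co2 at 29210 and 35730 against 13990 and 18130. All 44 of 44 nuclear genes of the respiratory chain were higher as well (median 0.54), led by Uqcrfs1 (0.83). On library totals 8 of these 44 were called higher and 1 lower, with a median of 0.01. Glycolysis genes were split, 7 of 17 higher and 8 lower (median -0.07), with the pyruvate kinase gene Pkm at -1.62. Of the cholesterol synthesis genes 15 of 21 were higher, led by Cyp51 (1.19), and on library totals 6 were higher and 9 lower. The medians were 0.41 and -0.11.

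Injury genes were low in the same spots. Of the tubular injury and failed repair list 38 of 41 tested genes were lower and 2, Itgb8 and Met, higher (median -1.51). Havcr1 stood at 22.0 and 27.1 CPM in the Cyp4a14-high spots and 89.0 and 102 in the remaining spots (log2 fold change -1.93, SE 0.073). Lcn2, an iron-binding protein secreted by damaged tubules, stood at 25.2 and 21.4 against 116 and 90.1, and Vcam1, an adhesion molecule of failed-repair cells, at 35.0 and 27.7 against 109 and 90.6. For these 3 genes both sections of the Cyp4a14-high spots were below both of the remaining spots. Spp1, which encodes osteopontin, stood at 3581 and 3406 against 8092 and 7529 (-1.13), and the keratin gene Krt20 at 3.49 and 4.14 against 12.7 and 11.7. S100a6, Clu and Timp1 fell by 1.94, 1.79 and 1.57.

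Genes of other cells were lower in the same comparison. The macrophage list was lower for 24 of 24 genes (median -1.51), with the lysozyme gene Lyz2 at 109.5 and 86.3 CPM against 404 and 318. The matrix list was lower for 30 of 30 (median -1.40), with the collagen gene Col1a2 at 165 and 119 against 450.2 and 357. Of the cell cycle genes 24 of 25 were lower, and of the interferon response genes 27 of 29. Along the nephron the intercalated cell list was lower for 11 of 11, the distal convoluted and connecting tubule list for 10 of 12, the thick ascending limb list for 9 of 11 and the podocyte list for 14 of 14. Summed over its markers, the macrophage list had a median per spot of 6.50 and 4.89 UMIs per 10000 in the Cyp4a14-high spots and 21.6 and 16.1 in the remaining spots. The matrix list had 17.6 and 15.3 against 59.2 and 44.4. The part of these other cells in the falls was not tested.

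The 15 largest falls by the rule were Cidea, Ucp1, Cox8b, Thrsp, Adig, Upk3a, Prkar2b, Psca, Cfd, Ly6d, Mrap, Retn, Apoc1, Slc36a2 and Cidec, from -3.27 to -4.37. They are mostly genes of brown or white fat, such as the uncoupling protein gene Ucp1 (8.49 and 14.2 CPM against 197 and 263), or of the urothelium that lines the pelvis, such as the uroplakin gene Upk3a (2.00 and 1.03 against 25.1 and 19.7). The adipocyte list was lower for 10 of 10 genes (median -3.23) and the urothelium list for 9 of 9 (median -2.89). When the top 10% of spots by the summed adipocyte and urothelium markers were left out, the adipocyte median was 0.23 and Cidea, Cox8b and Cfd stood at 0.01, 0.33 and 0.16. The adipocyte list, with Cidea and Cfd in it, was itself used to choose the spots left out, so its change follows from that choice. Of the lipid synthesis list 8 of 20 were higher and 11 lower with all spots, and 16 of 19 were higher and 2 lower without those spots. Its genes Fasn and Scd1 went from -2.66 and -2.07 to 0.36 and 0.44. Over all genes of the fit without those spots, 4662 of 14739 were higher and 4868 lower. The injury list then had a median of -1.50 and the peroxisomal list one of 1.05.

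Levels differed gradually along the Cyp4a14 ranking. When the spots of each section were cut into 10 equal bins by Cyp4a14, the fatty acid genes Cyp4a10, Ehhadh and Acaa1b were higher in each bin than in the one before, in both sections. The limit falls within bin 9, so these bins cannot show whether there is a step at it. Havcr1 was highest in the third bin and Lcn2 and Vcam1 in the second, and all 3 were lowest in the tenth. Across all spots of sections 1 and 2, Spearman's rho with the Cyp4a14 level was 0.79 and 0.81 for Acaa1b, 0.78 and 0.80 for Cyp4a10 and 0.70 and 0.77 for Slc34a1 (2650 and 2590 spots). It was -0.04 and -0.07 for Havcr1, of which most spots had no UMI. These describe spots that share libraries, depth and cell mixture, and they carry no p-value.

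**Figure D2:**
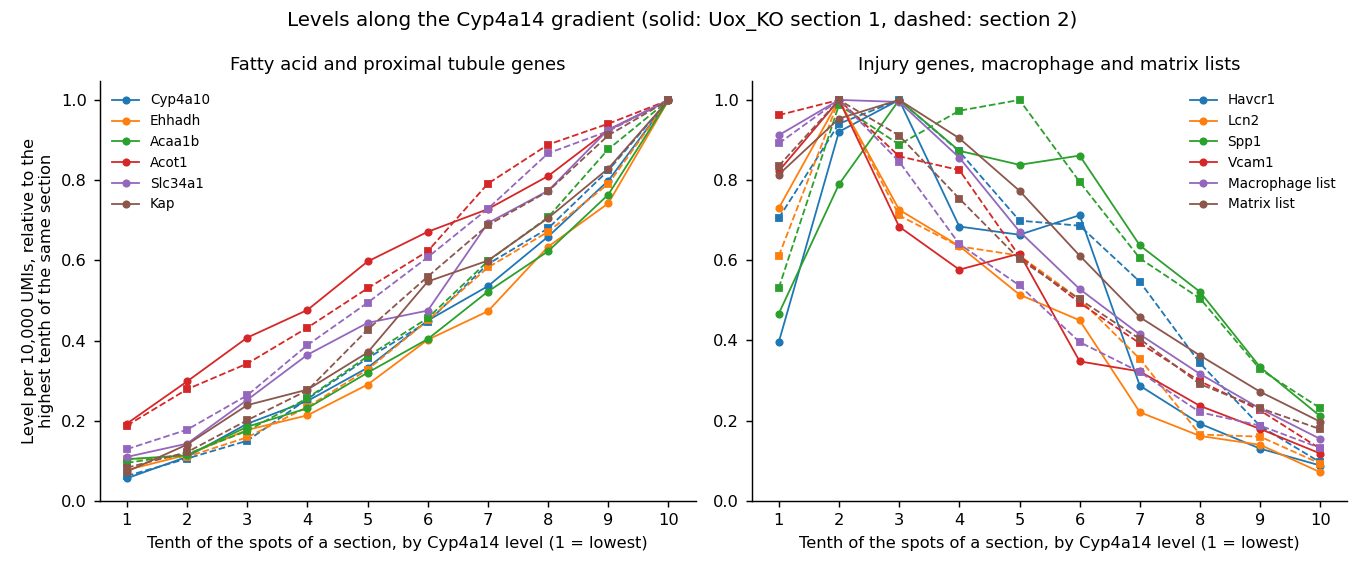
Levels per 10000 UMIs in 10 equal bins of spots ordered by Cyp4a14, each divided by the highest bin of the same section, for section 1 (solid, circles) and section 2 (dashed, squares). Fatty acid and proximal genes (left) are highest in the tenth bin, and injury genes with the macrophage and matrix lists (right) peak in bins 2 to 5 and are lowest in the tenth.

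Among the Cyp4a14-high spots themselves the fatty acid genes were only loosely ordered. Within the 398 and 389 spots, rho with Cyp4a14 was 0.25 and 0.27 for Cyp4a10, 0.36 and 0.16 for Acaa1b and 0.02 and 0.06 for Slc34a1. The interquartile range of these spots was 10.2 to 16.8 and 10.4 to 16.2 Cyp4a10 UMIs per 10000, against 1.49 to 7.91 and 1.67 to 8.02 in the remaining spots, so the ranges did not overlap. For Acot1 the ranges met, with 2.80 to 4.84 and 2.45 to 4.56 against 0 to 3.10 and 0.418 to 2.88. The Cyp4a14-high spots, 15% of all spots, filled 211 of 265 and 208 of 259 of the top 10% of spots by the peroxisomal list. Markers of the convoluted and of the straight part of the proximal tubule were found among them. Slc5a2 of the earliest segment had no UMI in 59.8% and 50.6% of them, against 61.8% and 52% of the remaining spots. Of the Cyp4a14-high spots, 139 and 144 were in the top 10% by the S1 and S2 markers and 100 and 123 in the top 10% by the S3 markers, while 4 and 15 were in both and 163 and 137 in neither.

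Few Cyp4a14-high spots were rich in injury genes. In section 1, 7 of the 265 spots in the top 10% by Havcr1 were Cyp4a14-high (2.64% of those and 1.76% of the 398), and in section 2, 10 of 259 (3.86% and 2.57% of the 389). For Lcn2 the overlap was 3 and 1 spots, and for the macrophage and the matrix lists it was 0 and 0. By the rule, Cyp4a14-high spots made up 15% of all spots of a section. At least 1 Havcr1 UMI was found in 32.2% and 26.7% of the Cyp4a14-high spots, against 35.8% and 35.9% of the remaining spots. All these sets are drawn from the same mixed spots.

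The comparison that bears most on proximal tubule content used remaining spots matched to the Cyp4a14-high spots, 1 to 1, on the summed level of 48 proximal tubule genes. The matched spots had a median of 1474 and 1490 per 10000 for that sum, against 1603 and 1589 in the Cyp4a14-high spots and 761 and 809 in all remaining spots, so the matching was close but not complete. They had a median of 16.1 and 17.1 Cyp4a14 UMIs per 10000 and were shallower, at 19956 and 25797 UMIs. Of 12754 genes tested, 13.6% passed the threshold, 8.02% higher and 5.56% lower, in place of 65.4%. Only 8 genes were more than 2-fold higher and 56 more than 2-fold lower. Of the 4693 genes that had been called higher and were tested again, 1015 (21.6%) were again called higher, and of the 3953 called lower 663 (16.8%) were again lower.

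Fatty acid genes were among those higher than in the matched spots. Ehhadh stood at 740.5 and 703 CPM against 432 and 457 in the matched spots (0.69, SE 0.039) and Cyp4a10 at 1415 and 1342 against 927 and 902 (0.58). Fabp1 (0.82), Acaa1b (0.55), Vnn1 (0.41) and Acot1 (0.34) were higher as well, each in both sections. In the peroxisomal list 27 of 36 were higher and 0 lower (median 0.29), and in mitochondrial oxidation 21 of 27 and 0 (median 0.24). The lists used for matching had medians of about the same size, 0.27 for the shared proximal genes, 0.25 for S3 and 0.19 for S1 and S2. The mitochondrially encoded transcripts had a median of 0.37, and all 13 were higher. Acsm2, Slc27a2, Pck1, Acox2 and Fbp1, members of the fatty acid lists, were themselves among the genes matched on. Gm15441 rose by 1.44, the largest rise among genes averaging 10 CPM or more in this test.

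Injury genes were lower than in the matched spots. Havcr1 stood at 22.0 and 27.1 CPM in the Cyp4a14-high spots against 56.9 and 31.7 in the matched spots (-0.85), which was -1.37 in section 1 and -0.22 in section 2. Spp1 stood at 3581 and 3406 against 7414 and 5558 (-0.89), Vcam1 at 35.0 and 27.7 against 52.4 and 53.3 (-0.76) and Dcdc2a, a marker of failed-repair tubule cells, at 17.2 and 13.3 against 30.2 and 24.9 (-0.86). The injury list was lower for 26 of 40 tested genes and higher for 0 (median -0.40), the macrophage list lower for 15 of 23 (median -0.52) and the matrix list for 26 of 30 (median -0.39). The S1 and S2 list was mixed, with 9 of 14 higher and 3 lower, and the S3 list had 7 of 14 higher and 0 lower. Slc5a2, among the lower ones, was more than 2-fold lower, at 38.5 and 39.0 against 81.2 and 96.5 (-1.20). Slc34a3, another carrier of the early segment, stood at 1.20 and 0.828 against 2.63 and 4.16 (-1.73). It averaged only 1.27 CPM over the Cyp4a14-high and remaining spots, so it rests on few UMIs. Against remaining spots matched on UMIs the Slc34a3 level was 1.03-fold. Slc7a13 of the S3 segment was higher, at 460.2 and 429.6 against 300.3 and 244 (0.70). The largest fall, in the antibody gene Igha (-3.50), was -0.92 in section 1 and -5.15 in section 2 and rested on section 2.

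**Figure D3:**
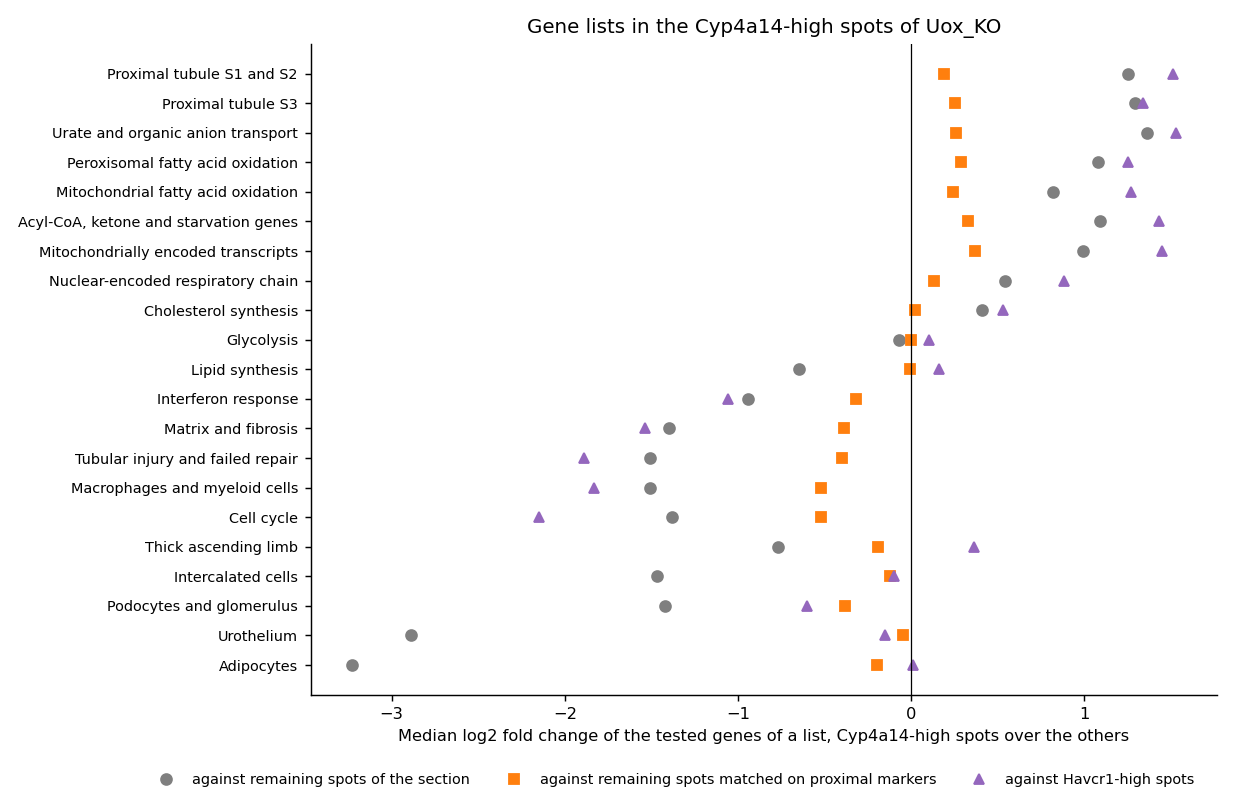
Median log2 fold change of the tested genes of 21 lists in the Cyp4a14-high spots against all remaining spots (grey circles), against remaining spots matched on proximal markers (orange squares) and against Havcr1-high spots (purple triangles), each from its own fit. The orange squares lie much nearer to 0 than the grey circles, with the peroxisomal list at 0.29 against 1.08 and the injury list at -0.40 against -1.51.

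Set against the Havcr1-high spots of the same sections, with the spots in both sets left out, the Cyp4a14-high spots were higher in fatty acid and transport genes and lower in injury genes. Cyp4a14 and Havcr1 chose the spots and were left out of this test. CPM values of both sets cover all their spots, the shared ones included, while the fold changes and calls come from the sets without the shared spots. Of 13131 genes 59.8% passed the threshold, 29.9% higher and 29.9% lower. Peroxisomal genes were higher for 35 of 37 (median 1.25), mitochondrial oxidation genes for 26 of 27 (1.27) and S1 and S2 markers for 10 of 13 (1.51). Injury genes were lower for 35 of 40 and higher for 2, again Itgb8 and Met (median -1.89). Ehhadh stood at 740.5 and 703 CPM against 141 and 156 in the Havcr1-high spots (2.41) and Acaa1b at 1811 and 1700 against 309 and 309.5 (2.64).

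The largest rises over the Havcr1-high spots by the rule were Cyp2d12, Slc7a13, Ttr, G6pc, Slc22a22, Pzp, Dpys, Slc22a8, Dnase1 and Car14, from 2.70 to 3.55. The largest falls were Aoc1, Stra6, Serpina10, Hspb1, Lcn2, Ccl2, Anxa3, Cd44, Cp and Timp1, from -2.64 to -3.70. Aoc1, a diamine oxidase, stood at 14.9 and 13.0 CPM against 200.5 and 148, and the heat shock gene Hspb1 at 34.5 and 33.0 against 266 and 241. Plin2 went the other way from the oxidation genes, at 239 and 253 against 263 and 349.6 (-0.30). On library totals the median of all genes moved from -0.03 to -0.61 and the calls from 3926 higher and 3927 lower to 1472 higher and 8988 lower. The peroxisomal median was then 0.67 and the mitochondrial oxidation median 0.70.

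**Figure D4:**
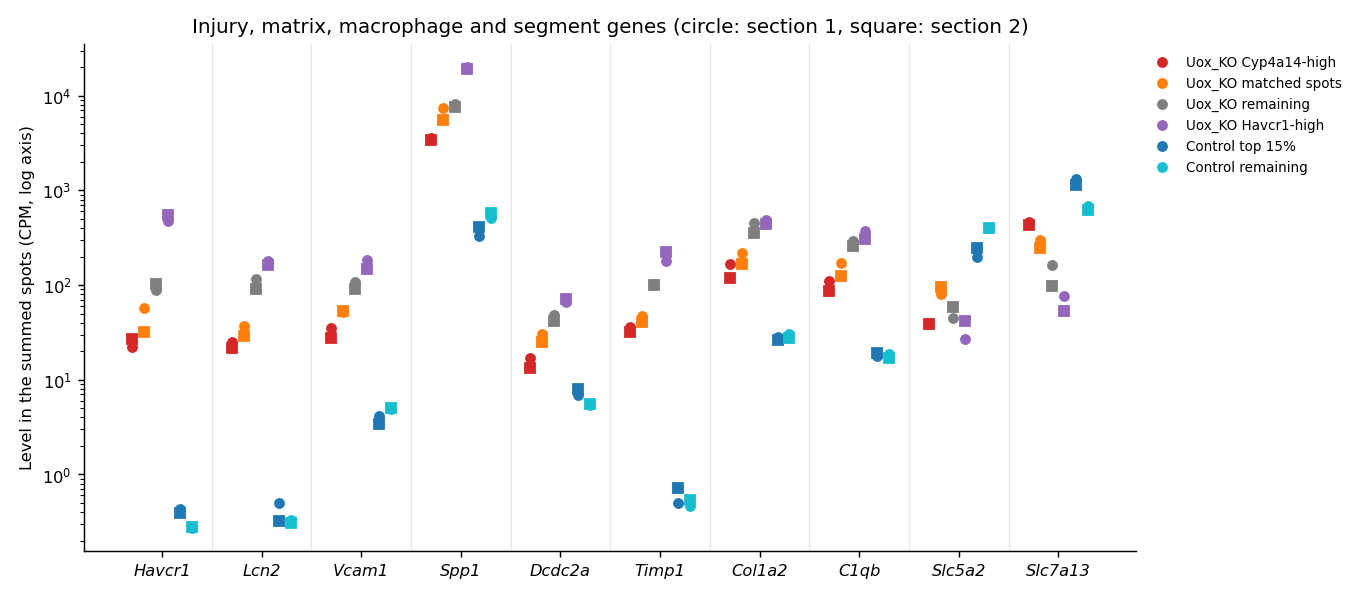
Level of injury, matrix, macrophage and segment genes in CPM on a log axis, by class of spots, with 1 point for each section and no error bars. The Cyp4a14-high spots (red) lie below the Havcr1-high spots (purple) for the 8 injury, matrix and macrophage genes and above the Control spots (blue) for all 8, while Slc5a2 is highest in the remaining Control spots. Havcr1, among these 8, itself chose the purple spots, so its gap to them follows from that choice.

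The same ranking in Control kidneys rested on few molecules. The top 15% of Control spots, 379 and 504 spots, held a median of 3 and 2 Cyp4a14 UMIs and began at 0.52 and 0.48 per 10000, while 1494 and 2184 of the remaining Control spots held none. Of 14732 genes tested between them and the remaining Control spots 20.5% passed the threshold, 11.3% higher and 9.14% lower. S3 markers were higher for 13 of 13 (median 0.73), and S1 and S2 markers were lower for 10 of 14 (median -0.54). Genes of other segments moved as well. The thick ascending limb list was higher for 6 of 11 and lower for 2, with a median per spot of 42.1 and 46.4 UMIs per 10000 against 20.7 and 26.4. The distal convoluted and connecting tubule list was lower for 13 of 13, at 10.1 and 15.3 against 21.5 and 30.01. The part of these cells in the other differences was not tested. Cyp4a10 stood at 354 and 282 CPM against 148 and 139 (1.14), Ehhadh at 548 and 493 against 342 and 306 (0.69) and Slc5a2 at 196 and 245 against 405 and 404 (-0.87). Peroxisomal genes were higher for 23 of 36 (median 0.21), and the injury list was split, 10 higher and 10 lower of 38. The count of calls was 738 without the section block and 846 or 1193 without either Control section, in place of 3017.

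Whether the difference along the ranking differed between genotypes was tested with a class by genotype term over all 4 sections, and 44.7% of 15426 genes passed the threshold, 23.2% positive and 21.5% negative. The term was positive for 13 of 14 S1 and S2 markers and, for S3 markers, positive for 7 and negative for 6 of 14 (median 0.02). The 10 largest positive terms were those of Cyp2d12, Fabp1, Gatm, Slc6a19, Cyp2d26, Slc22a8, Acmsd, Cyp4a12a, Car14 and G6pc, from 1.98 to 2.81. The 10 largest negative terms, from -3.78 to -5.16, were those of the fat and urothelium genes Cidea, Ucp1, Cox8b, Thrsp, Adig, Prkar2b, Cfd and Upk1a and of Cck and Hp. Within Uox_KO these fat and urothelium genes were 8.71-fold (Upk1a) to 20.6-fold (Cidea) lower in the Cyp4a14-high spots. Within Control they were 1.19-fold (Cfd) to 1.69-fold (Cidea) higher in the top 15% of spots. Ucp1 was 3.55-fold higher in the Cyp4a14-high spots of Uox_KO than in those Control spots. The part in these terms of how much fat and urothelium each section held was not tested. The term of Cox8b turned to 1.34 without Control section 2. Gatm, which makes the creatine precursor, stood at 282 and 378 against 107 and 167 CPM in Uox_KO and at 248 and 238 against 509.5 and 424 in Control, so the 2 genotypes ran in opposite directions. Slc6a19, an amino acid carrier, did the same, at 70.6 and 94.8 against 29.8 and 40.0 and at 165 and 179.7 against 342 and 319. For peroxisomal genes the term was positive in 34 of 37 (median 0.83) and for injury genes negative in 33 of 41 (median -1.34). Ehhadh had a term of 1.09, Acaa1b of 1.23 and Cyp4a10 of 0.60.

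The Cyp4a14-high spots of Uox_KO were then set against the top 15% of Control spots, sections against sections, and 44.8% of 13116 genes passed the threshold, 23.1% higher and 21.6% lower. Cyp4a10 stood at 1415 and 1342 CPM in Uox_KO and 354 and 282 in Control (log2 fold change 2.13, SE 0.096), and Cyp4a12b at 50.2 and 56.8 against 6.47 and 6.59 (3.05). Cyp4a12a went the other way, at 31.1 and 44.1 against 100 and 90.5 (-1.33). Vnn1 stood at 541 and 522 against 139 and 131 (2.00) and Acot1 at 381 and 344 against 116 and 93.9 (1.81). Over the peroxisomal list 14 of 36 were higher and 6 lower. The values of the 2 genotypes did not overlap for any of these named genes.

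Injury genes were higher in the Cyp4a14-high spots of Uox_KO than in the Control spots. The injury list was higher for 32 of 40 and lower for 3, Krt7, Itgb6 and Met (median 1.06), with Havcr1 at 22.0 and 27.1 CPM against 0.426 and 0.388 and Lcn2 at 25.2 and 21.4 against 0.498 and 0.323. The macrophage list was higher for 21 of 23 (median 2.01) and the matrix list for 29 of 30 (median 1.85). The red blood cell list was lower for 7 of 7 (median -3.71), with a median per spot of 0.917 and 1.42 UMIs per 10000 in Uox_KO against 34.9 and 32.9 in Control. The thick ascending limb list was lower for 11 of 11 (median -1.68). The part of blood and of this segment in these differences was not tested. Slc34a1 did not differ past the threshold (5446 and 5971 against 5832 and 5755, log2 fold change -0.01, SE 0.082), and Slc7a13 was lower at 460.2 and 429.6 against 1318 and 1154 (-1.46). Azgp1, a zinc-binding glycoprotein, rose within Uox_KO but was lower than in Control, at 37.7 and 34.6 against 240.2 and 222 (-2.66). The Control spots rested on the few Cyp4a14 UMIs given above and came from deeper sections, and the part of both in these differences was not tested.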

How the data were processed

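The deposited files hold raw UMI counts per gene and spot, which the authors made with Space Ranger 1.3.1 on mm10, per the submitters' processing notes. All spots listed in the deposited matrices, 2528 to 3362 per section, were used. Totals per section and per spot are in the opening of the results, and intervals and floors cover counting error only. Counts were summed per section and class of spots and tested with edgeR 4.0.16 in R 4.3.3 (filterByExpr, trimmed-mean scaling, quasi-likelihood F test), with the section as a block within genotypes. DESeq2 1.42.0 was an alternative. The same spot rule was applied to Control. Named genes were the 15 largest each way that average 10 CPM or more with both sections on 1 side, the 10 largest each way in the other comparisons, up to 4 per list by p, and a fixed set of fatty acid, injury and tubule genes. Named outside this rule, after their values were seen, were Abcg2, Acadm, Cd36, Dcdc2a, Gm15441, Igha, Pex11a, Ppargc1a, Slc22a12, Slc34a3, Slc5a2, Spp1, Txnip and the few list members that went against their list. The members, lists and rules were chosen with earlier results of these data known. Alternatives included spots matched on proximal markers or on UMIs and the removal of fat and urothelium spots. Library totals, and the matched comparison in each section alone, were added after seeing the data. On simulated data, the comparison of Cyp4a14-high with remaining spots recovered 84% of 100 genes changed 1.5-fold and 97% of 100 changed 2-fold, among 14844 genes. The genotype term recovered 67% and 85% among 15345 genes, and the comparison of Uox_KO with Control 76% and 100% among 12924. The changed genes were drawn from well-counted genes and moved both ways, and all other genes were left unchanged. Every simulated gene had the same spread, a coefficient of variation of 0.05 beyond counting error. In the simulated comparison of Uox_KO with Control, all sections had the same relative levels before genes were changed. Recovery with spreads that differ between genes, or with further differences between mice, was not tested. In the data 65.4% of genes passed in the first comparison, so recovery under such broad differences was not tested. Sequences are from RefSeq promoters of GRCm38.p6. A few genes are not reported here.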

Additional observations from a re-analysis of the deposited data

Results flagged for a closer look

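The difference between Cyp4a14-high and remaining spots was not the same in both genotypes for 6893 genes by edgeR's class by genotype term, given here as the Uox_KO minus the Control log2 difference. Among fatty acid genes the term was 2.35 for Fabp1, 1.98 for Cyp4a12a, 1.23 for Acaa1b, 1.09 for Ehhadh, 0.75 for Cyp4a31, 0.60 for Cyp4a10 and 0.43 for Acot1. Among transport and other tubule genes it was 2.81 for Cyp2d12, 2.20 for Gatm, 2.16 for Slc6a19, 2.15 for Cyp2d26, 2.09 for Slc22a8, 2.01 for Acmsd, 1.98 for Car14, 1.98 for G6pc and 1.52 for Slc34a1. It was negative for fat and urothelium genes and a few others, at -5.16 for Cidea, -5.00 for Ucp1, -4.78 for Cox8b (1.34 without Control section 2), -4.67 for Thrsp, -4.43 for Adig, -4.23 for Prkar2b, -3.95 for Cck, -3.93 for Cfd, -3.91 for Upk1a and -3.78 for Hp. The Control side of each term rests on spots chosen by a median of 3 and 2 Cyp4a14 UMIs. The part in the negative terms of how much fat and urothelium each section held was not tested.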

How the results depend on the processing

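With 2 sections per genotype, and a spread borrowed across genes, counts of calls moved with the tool. DESeq2's Wald test called 5813 genes between Cyp4a14-high and remaining Uox_KO spots in place of 9786, all with the same sign, 3943 against Havcr1-high spots, 911 in Control, 3956 for the genotype term and 3541 between genotypes. A minimum mean of 10 CPM left 5824 calls and matching on proximal markers 1732. Leaving out each section in turn gave 8178 to 8364 calls against remaining spots, 6612 to 6797 against Havcr1-high spots, 846 to 1193 in Control, 5417 to 6357 for the genotype term and 4774 to 5266 between genotypes, where a lone section is assumed to vary like the others. The section pairs the sums of 1 mouse. With no replicate block the counts were 8225 against remaining spots, 7043 against Havcr1-high spots and 738 in Control. Between genotypes sections share only a number, with a correlation of their deviations of 0.11 over 13117 genes, and the replicate block gave 6167 calls in place of 5870.

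Some named genes changed sign. Without adipocyte and urothelium spots Adig was at 0.04, Apoc1 at 0.03, Cfd at 0.16, Cidea at 0.01, Cidec at 0.17, Cox8b at 0.33, Fasn at 0.36, Mrap at 0.28, Retn at 0.30, Scd1 at 0.44, Thrsp at 0.24 and Txnip at 0. Of these, Cfd, Cidea, Cidec and Retn were among the genes used to choose the spots left out. Against spots matched on proximal markers Ly6d was at 0.02, Mrap at 0, Scd1 at 0.01 and Txnip at 0.06. Within section 1 alone that comparison gave 0.09 for Cfd, 0.06 for Cox8b, 0.05 for Cpt1b, 0.11 for Fasn, 0.01 for Ly6d, 0.50 for Mrap, 0.24 for Retn, 0.05 for Scd1, 0.12 for Thrsp, 0.12 for Txnip and 0.04 for Upk3a, and within section 2 alone 0.37 for Krt20, 0.06 for Ly6d and 0.02 for Txnip. Against spots matched on UMIs Pdk4 was at -0.29, Plin2 at -0.09 and Slc5a2 at 0. On library totals Pdk4 was at -0.28, Plin2 at -0.35 and Ppargc1a at -0.35, and with the 10 CPM minimum Plin2 was at -0.01. The genotype term of Cox8b ran from -5.25 to 1.34 as each section was left out, the latter without Control section 2. Except where a setting itself removes genes, spots or sections, the cause was not tested.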
